A study of Mus musculus with 8 samples.

Results

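Semaphorins, plexins and neuropilins form one ligand and receptor system, and the 31 genes of it named here were taken by symbol from the 31610 genes of the deposited count table. They comprise 20 semaphorins, 9 plexins and 2 neuropilins, and all 31 were found and passed the filter on low counts. RNA came from endothelial cells sorted by flow cytometry from lungs of C57BL/6J mice. In 4 libraries the mice had received an nANGPTL4 AAV, an adeno-associated virus labelled for ANGPTL4, a secreted inhibitor of lipoprotein lipase, and in 4 libraries a Control AAV. What the prefix n stands for is not spelled out. The libraries are independent biological replicates per the series text, which does not say how many mice made up each, and the comparison is between lung endothelium after one vector and after the other. The titles of the nANGPTL4 AAV libraries read NT Treated, so their group rests on the treatment field. The promoter and target cells of the vector, its dose, the interval after injection, the cargo of the control vector, and the age and sex of the mice are not stated in the labels.

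Semaphorins are guidance cues that axons, leukocytes and vessels share. They act through plexins, single-pass receptors whose inner part carries a GTPase-activating domain for small Ras-like proteins, and thereby weaken integrin adhesion and rearrange actin. The secreted class 3 semaphorins mostly need a neuropilin as the binding partner of the plexin, and neuropilins also bind VEGF family ligands next to VEGF receptors. In vessels the system steers sprouting, separates artery from vein and tunes permeability.

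Library totals ranged from 83183122 to 114337333 counts. Counts of a member in 1 library ranged from 10 for Sema4f to 258557 for Sema3c, so counting error is small for the abundant members and large for Sema4f and Sema4g. The sort label was checked on 10 pan-endothelial markers, whose summed level was 18476 to 19426 CPM in nANGPTL4 AAV libraries and 19333 to 19962 CPM in control AAV libraries, with Pecam1 at 2647 ± 72.4 CPM with nANGPTL4 AAV and 2734 ± 121 CPM with control AAV (SD, n = 4 each). Markers of other cells were present at low levels, with none at 0 in all 8 libraries. The 12 lung epithelial genes summed to 482 to 592 CPM in nANGPTL4 AAV libraries and 344 to 501 CPM in control AAV libraries. The 10 fibroblast and mural genes summed to 72.8 to 159 CPM in nANGPTL4 AAV libraries and 61.9 to 129 CPM in control AAV libraries, and the 9 erythroid and platelet genes, all 9 with positive log2 fold changes and 0 called, to 73.1 to 84.6 CPM in nANGPTL4 AAV libraries and 45.9 to 86.6 CPM in control AAV libraries. The 10 myeloid genes summed to 30.5 to 50.5 CPM in nANGPTL4 AAV libraries and 19.1 to 40.8 CPM in control AAV libraries, and the 5 mesothelial genes to 3.28 to 3.9998 CPM in nANGPTL4 AAV libraries and 2.32 to 3.88 CPM in control AAV libraries. These sums overlapped between the groups. Of all tested genes 47.8% had negative log2 fold changes in edgeR, the test described below. CPM is the count relative to the TMM-scaled library size, where TMM evens out differences in composition between libraries.

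None of the 31 genes was called between the groups in edgeR's quasi-likelihood test at a Benjamini-Hochberg adjusted p under 0.05, a rule that called 0.138% of the 18874 tested genes. At an adjusted p under 0.1 in edgeR there were 3, Sema4a, Sema4c and Nrp2, against 2.5% of tested genes. Over all 31 the Benjamini-Hochberg adjusted p ran from 0.0841 for Sema4a to 0.937 for Sema3d. At an unadjusted p under 0.05 there were 2 members higher in nANGPTL4 AAV, Sema4a and Sema4f, where the background is 7.35% of tested genes, and 9 lower, where it is 10.3%. The 9 were Sema3c, Sema3g, Sema4b, Sema4c, Sema6d, Sema7a, Plxnb1, Plxnd1 and Nrp2. The other tools differed, in that DESeq2 called Sema3c, Sema4c and Nrp2 lower, where it called 4.16% of genes lower, and Sema4a higher, where it called 1.98% higher. limma-voom called 0 members.

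In 5 members every library of one group lay beyond every library of the other, Sema3c, Sema4b and Nrp2 with nANGPTL4 AAV lower and Sema4a and Sema6c with nANGPTL4 AAV higher. Over all tested genes the groups were apart in 6.99% with nANGPTL4 AAV lower and 3.89% with it higher. Non-overlap is a rule on ranges and does not rank members by strength of change. The edgeR adjusted p of the 5 ran from 0.0841 for Sema4a to 0.287 for Sema6c. Sema4c, at 0.0961, had overlapping groups and was left out. The sequence before the start site is shown for 4 of the 5 with groups apart. Only in these 4 does the RefSeq window (GRCm38.p6, the build of mm10) hold at least 150 bases outside every GENCODE M21 exon. The stretches are chr1:62703067-62703284 on the plus strand, chr7:80186620-80186840 on the plus strand, chr3:88461183-88461432 on the minus strand and chr3:95160170-95160419 on the plus strand, each read 5′ to 3′ towards the gene, with matches to the GC box GGGCGG on either strand in capitals.
Nrp2: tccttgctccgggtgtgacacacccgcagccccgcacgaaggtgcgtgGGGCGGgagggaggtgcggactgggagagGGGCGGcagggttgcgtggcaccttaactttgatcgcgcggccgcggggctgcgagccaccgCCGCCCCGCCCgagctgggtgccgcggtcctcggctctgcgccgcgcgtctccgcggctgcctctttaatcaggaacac
Sema4b: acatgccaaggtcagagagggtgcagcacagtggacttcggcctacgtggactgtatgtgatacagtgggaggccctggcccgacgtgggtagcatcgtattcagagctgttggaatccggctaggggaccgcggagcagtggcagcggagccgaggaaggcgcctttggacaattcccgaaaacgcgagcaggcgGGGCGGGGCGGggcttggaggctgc
Sema4a: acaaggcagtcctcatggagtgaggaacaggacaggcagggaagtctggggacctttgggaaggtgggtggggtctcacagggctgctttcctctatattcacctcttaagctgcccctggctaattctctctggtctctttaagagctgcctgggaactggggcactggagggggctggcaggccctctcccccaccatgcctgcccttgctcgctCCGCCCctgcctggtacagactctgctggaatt
Sema6c: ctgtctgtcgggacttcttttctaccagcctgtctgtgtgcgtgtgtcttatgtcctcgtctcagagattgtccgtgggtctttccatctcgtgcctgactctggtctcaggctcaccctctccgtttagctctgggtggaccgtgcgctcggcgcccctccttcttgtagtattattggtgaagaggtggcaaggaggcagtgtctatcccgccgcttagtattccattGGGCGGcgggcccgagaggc
That of Nrp2 held 4 GC boxes, 2 of which overlap, in 218 bases that are 72.5% G or C, while that of Sema4a held 1 in 250 bases that are 59.6% G or C. Sema4b had 2, which overlap, and Sema6c had 1. Where a gene has several RefSeq windows, only the one furthest upstream was used. The other windows held 2, 1 and 0 GC boxes for Sema4a, 2 for Sema4b and 0 for Sema6c. Over whole RefSeq windows of 300 bases, the GC box was present in 27 of 37 windows of the 26 matched members (73.0%), and in 35.7% of all 32851 windows. The median G and C content was 63.7% in member windows and 52.7% in all windows. The ETS core CCGGAA was in 10.8% of member windows and 14.9% of all windows, the RBPJ core TGGGAA in 21.6% and 25.6%, the hypoxia core ACGTG in 21.6% and 19.6%, and TATAAA in 0 of 37 member windows and 13.6% of all windows, each counted on both strands. These are letter matches and no record of binding. Sema3b, Sema3f, Sema6a, Plxna1 and Plxna4 had no entry.

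Per length of exon, measured as CPM per kb over all 8 libraries, the system in these cells was led by 3 secreted ligands and one co-receptor. Sema3c averaged 264 CPM per kb, Sema3f 218, the neuropilin Nrp1 165 and Sema3g 135. They were followed by the transmembrane ligand Sema6a at 92.6, the receptor Plxna1 at 70.6, the GPI-anchored ligand Sema7a at 46.3 and the receptor Plxnd1 at 34.9 CPM per kb. At the low end stood Sema4g at 0.0313, Sema4f at 0.0358 and Sema5b at 0.0758 CPM per kb. Of the 30 neighbouring pairs in this order, 18 had ranges over the 8 libraries that overlap, among them Sema3c with Sema3f, and Sema7a, Plxnd1, Sema6d and Sema4c in turn. Sema3f, Nrp1, Sema3g, Sema6a and Plxna1 were each apart from the next. Nrp1 stood far above Nrp2, which averaged 1.52 CPM per kb.

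**Figure D1:**
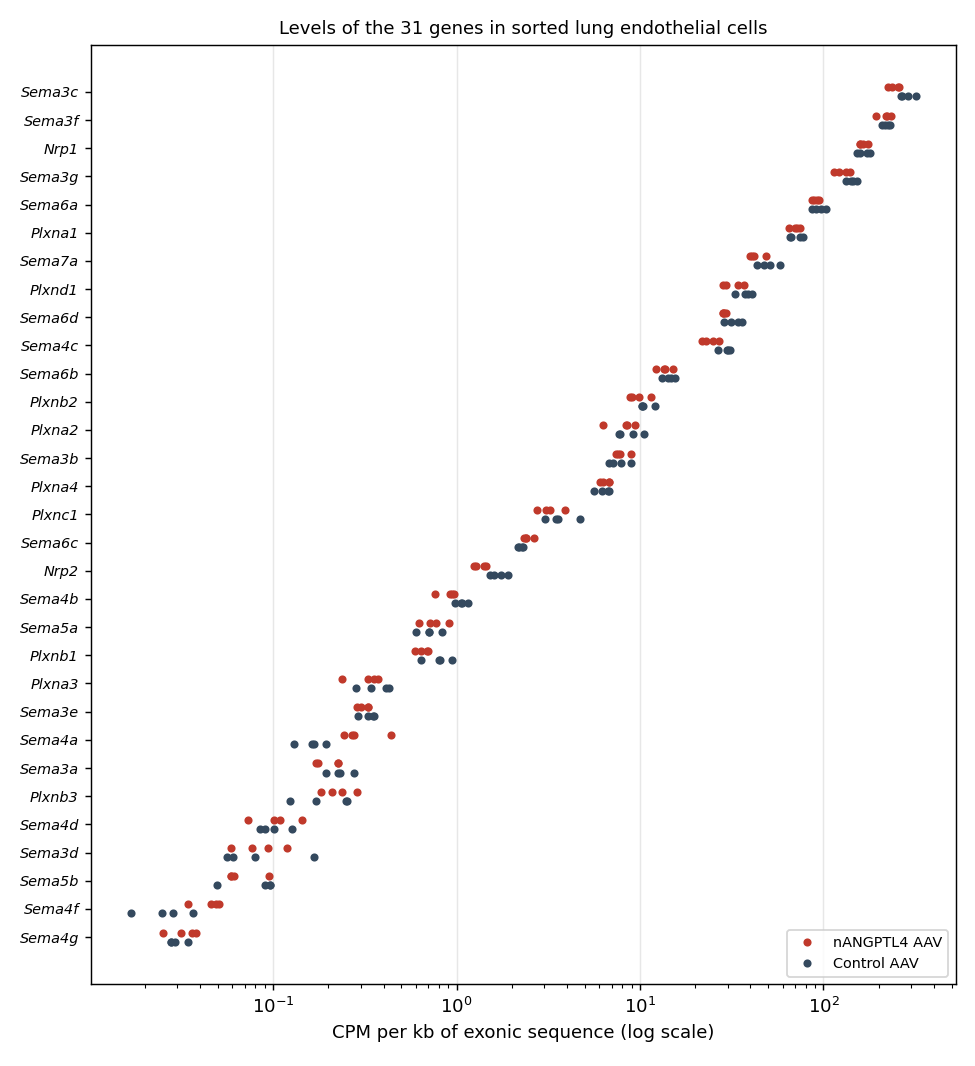
CPM per kb of exonic sequence (log scale) of each of the 31 genes, ordered by the mean over 8 libraries, with a point per library, nANGPTL4 AAV in red above Control AAV in dark blue. Sema3c leads at a mean of 264 CPM per kb and Sema4g is lowest at 0.0313, and points of the groups overlap in most genes.

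Class 3 semaphorins are the secreted ligands, and 6 of 7 had negative log2 fold changes, against 47.8% of all tested genes. Of the 7, 0 were called in edgeR, and the median was -0.086 (all 18874 tested genes, 0.0089). Sema3c, which binds both neuropilins and guides neural crest and vessels, lies on chromosome 5 from base 17574281 to base 17730268 (plus strand) of mm10. It had 1839.7, 1678, 1597 and 1816 CPM in nANGPTL4 AAV libraries 1 to 4, against 1921, 2288, 1893 and 2054 CPM in control AAV libraries 1 to 4. The highest nANGPTL4 AAV library was below the lowest control AAV library, by a narrow margin. The means were 1733 ± 115 CPM with nANGPTL4 AAV and 2039 ± 180.2 CPM with control AAV (SD, n = 4 each), and the change on the log2 scale was -0.23 (standard error 0.070, 95% interval -0.39 to -0.079) and did not pass in edgeR (adjusted p = 0.131) and just passed in DESeq2 (adjusted p = 0.0489). Groups that do not overlap with nANGPTL4 AAV lower were found in 3 of 31 members, against a background of 6.99% of tested genes.

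In mouse lung Sema3c is known from general capillary cells, the capillary type that renews the bed. Of 9 other markers of that type 8 had negative log2 fold changes with 0 called in edgeR, and their summed level was 15709 to 17476 CPM in nANGPTL4 AAV libraries and 17383 to 19072 CPM in control AAV libraries. DESeq2 called Cd93 (adjusted p = 1.7e-05), Vwf (adjusted p = 0.0042) and Ptprb (adjusted p = 0.0284) lower, where it called 4.16% of genes lower. The aerocyte list, for the gas-exchange capillary cell, had 1 of 10 negative and a summed level of 6878 to 8259 CPM in nANGPTL4 AAV libraries and 6788 to 7261 CPM in control AAV libraries. Of 10 pan-endothelial markers 9 were negative. The background is 47.8% of all tested genes and 62.5% of those with a mean log2 CPM over 3. In RNA from a whole sort, fewer cells of a type and less RNA per cell cannot be told apart, and the part of the capillary markers in the Sema3c value was not tested.

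Sema3g, a class 3 semaphorin of arterial endothelium, had 604, 629.7, 551 and 520.3 CPM with nANGPTL4 AAV and 694, 656, 638 and 602 CPM with control AAV over libraries 1 to 4, 576 ± 49.8 CPM with nANGPTL4 AAV and 647 ± 38.5 CPM with control AAV on average (SD, n = 4 each; log2 fold change -0.17, standard error 0.067, adjusted p = 0.230, edgeR). The groups overlapped. Of 10 arterial markers 9 had negative values and 1, the gap junction gene Gja5, was called lower in edgeR, and their sum was 2857 to 2965 CPM in nANGPTL4 AAV libraries and 3288 to 3768 CPM in control AAV libraries, apart by group. DESeq2 called Gja5 (adjusted p = 2.9e-10) and Fbln5 (adjusted p = 0.0086) lower. Negative values were also found in 9 of 10 pan-endothelial markers and in 62.5% of genes with a mean log2 CPM over 3. What share of the Sema3g value goes with the arterial markers was not tested.

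Sema3f, a ligand that prefers neuropilin 2 and repels endothelial cells and axons, had 1133, 1151, 1211 and 1003 CPM in nANGPTL4 AAV libraries 1 to 4, against 1080.0, 1200.0, 1166 and 1128 CPM in control AAV libraries 1 to 4. The groups overlapped, with a log2 fold change of -0.024 and a 95% interval of -0.16 to 0.11, which was 0.018 when scaled by library size only. Sema3b, its neighbour on chromosome 9 and likewise a ligand of neuropilins, had 42.5, 36.4, 37.2 and 35.2 CPM with nANGPTL4 AAV and 34.2, 42.6, 32.3 and 37.8 CPM with control AAV over libraries 1 to 4 and a log2 fold change of 0.041 (standard error 0.088), with overlapping groups.

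Sema3a, Sema3d and Sema3e are low-abundance ligands here, the first the classical repellent that acts through Nrp1, the last a ligand that binds plexin D1 directly. Their means were 2.76 ± 0.412 CPM with nANGPTL4 AAV and 3.21 ± 0.468 CPM with control AAV for Sema3a, 0.748 ± 0.220 CPM with nANGPTL4 AAV and 0.779 ± 0.444 CPM with control AAV for Sema3d and 2.89 ± 0.190 CPM with nANGPTL4 AAV and 3.07 ± 0.281 CPM with control AAV for Sema3e (SD, n = 4 each). Their log2 fold changes of -0.22, -0.071 and -0.086 had adjusted p-values of 0.454, 0.937 and 0.722 in edgeR. All 3 share chromosome 5 with Sema3c, in the order Sema3d (from 12383385), Sema3a (from 13125414), Sema3e (from 14025276) and Sema3c (from 17574281), all on the plus strand of mm10. Within this stretch Sema3c stood at 264 CPM per kb and the other 3 between 0.0888 and 0.321 CPM per kb.

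TMM factors were 1.008 to 1.023 in nANGPTL4 AAV libraries and 0.969 to 0.994 in control AAV libraries. A share of all counts in a library uses no such factor and scales by library size alone. By that measure the 20 semaphorins together took 0.510, 0.501, 0.493 and 0.493% in nANGPTL4 AAV libraries 1 to 4, against 0.522, 0.566, 0.517 and 0.537% in control AAV libraries 1 to 4. Every nANGPTL4 AAV library was below every control AAV library. Sema3c alone made up 35.2 ± 2.21% of semaphorin counts in nANGPTL4 AAV and 37.5 ± 1.88% in control AAV (SD, n = 4 each). Without Sema3c the semaphorin share was 0.324 ± 0.0109% in nANGPTL4 AAV and 0.335 ± 0.00489% in control AAV, and the groups overlapped.

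The 6 class 4 semaphorins, transmembrane ligands of B-type plexins that are best known from immune and epithelial cells, went both ways. Of the 6, 4 had positive and 2 negative log2 fold changes (47.8% of all tested genes were negative), with 0 called in edgeR. Sema4c, a ligand of plexin B2 and the only abundant one, had 123, 105, 99.8 and 115 CPM in nANGPTL4 AAV libraries 1 to 4, against 136, 122, 141 and 139 CPM in control AAV libraries 1 to 4. Only control AAV library 2 and nANGPTL4 AAV library 1 crossed, at 122 and 123 CPM. The log2 fold change was -0.28 (standard error 0.070), with an adjusted p of 0.0961 in edgeR and 0.0172 in DESeq2. Of its exonic bases 7.27% overlap D430040D24Rik on the other strand, at 4.21 CPM in nANGPTL4 AAV and 4.43 CPM in control AAV, and strand use in counting is not stated.

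Sema4b, another transmembrane member, had 5.202, 5.31, 5.44 and 4.28 CPM with nANGPTL4 AAV and 5.56, 6.49, 5.96 and 6.05 CPM with control AAV over libraries 1 to 4. All nANGPTL4 AAV libraries were below all control AAV libraries, with a log2 fold change of -0.25 (standard error 0.10, adjusted p = 0.217 in edgeR and 0.125 in DESeq2).

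Sema4a, a costimulatory semaphorin of lymphocytes and dendritic cells that also acts on plexin D1 of endothelium, went the other way at a low level. Its counts were 135, 133, 163 and 244 in nANGPTL4 AAV libraries 1 to 4, against 95, 79, 75 and 88 in control AAV libraries 1 to 4. This is 1.46, 1.31, 1.49 and 2.37 CPM with nANGPTL4 AAV and 1.04, 0.699, 0.907 and 0.885 CPM with control AAV, with nANGPTL4 AAV library 4 well above the other 3 of its group. The groups did not overlap, as in 3.89% of tested genes with nANGPTL4 AAV higher. The log2 fold change of 0.91 (standard error 0.21), 1.88-fold, had an adjusted p of 0.0841 in edgeR and 0.00327 in DESeq2, and without nANGPTL4 AAV library 4 the log2 fold change was 0.69 (edgeR adjusted p = 0.130).

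Markers of cells known for Sema4a mostly had positive values too. Negative values made up 47.8% of all tested genes and 62.5% of those with a mean log2 CPM over 3. Positive values were thus the more common sign below that level, where Sema4a lies (mean log2 CPM 0.27). The 5 of 10 lymphocyte markers that passed the filter were all positive with 0 called. Below the filter, Cd3d, Cd3e and Nkg7 had higher means with nANGPTL4 AAV, and Cd3g and Cd8a lower ones. Cd8a was at 0.0219 CPM with nANGPTL4 AAV and 0.0727 CPM with control AAV, with groups that do not overlap. The sum of all 10 was 2.66 to 5.90 CPM in nANGPTL4 AAV libraries and 1.96 to 2.55 CPM in control AAV libraries, not overlapping. Of 12 epithelial markers 11 were positive and 1, the airway secretory gene Scgb3a2, was called higher in edgeR, with an overlapping sum. DESeq2 called Scgb3a2 (adjusted p = 2.0e-05) and Scgb1a1 (adjusted p = 0.0408) higher and Foxj1 (adjusted p = 0.0273) lower. Of the 5 of 10 myeloid markers that passed the filter 4 were positive with 0 called in edgeR, and the lysosomal macrophage protein Cd68 was at 6.57 ± 0.607 CPM with nANGPTL4 AAV and 4.79 ± 0.398 CPM with control AAV (SD, n = 4 each). DESeq2 called Cd68 higher (adjusted p = 0.00095), where it called 1.98% of genes higher. Mrc1 was negative, at 1.96 ± 0.0821 CPM with nANGPTL4 AAV and 2.53 ± 0.856 CPM with control AAV (log2 fold change -0.37). The groups overlapped in Mrc1, Lyz2, Csf1r and Ptprc. Sema4a had its highest value in nANGPTL4 AAV library 4. The lymphocyte sum was 2.98 CPM in that library and 5.90 CPM in nANGPTL4 AAV library 2. The myeloid sum was 44.7 CPM and 50.5 CPM in the same libraries. Dendritic cells had no list of their own. The part of these cells in the Sema4a value was not tested.

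Sema4d, the plexin B1 ligand of T cells and platelets, averaged 0.821 ± 0.224 CPM with nANGPTL4 AAV and 0.770 ± 0.142 CPM with control AAV, Sema4g, a plexin B2 ligand, 0.284 ± 0.0504 CPM with nANGPTL4 AAV and 0.258 ± 0.0266 CPM with control AAV, and Sema4f 0.238 ± 0.0384 CPM with nANGPTL4 AAV and 0.141 ± 0.0436 CPM with control AAV (SD, n = 4 each). These 3 transcripts were close to absent, and the groups overlapped in each. Sema4f had 20 to 27 counts in nANGPTL4 AAV libraries and 10 to 16 in control AAV libraries as the file gives them, overlapping only after scaling, with a log2 fold change of 0.77 (standard error 0.28, edgeR adjusted p = 0.198).

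Class 6 semaphorins, transmembrane ligands of A-type plexins, include the membrane-bound ligand with the highest level per kb. That ligand, Sema6a, which binds plexins A2 and A4, had 784, 761, 834 and 811 CPM in nANGPTL4 AAV libraries 1 to 4, against 904, 798, 756 and 852 CPM in control AAV libraries 1 to 4. The groups overlapped, with a log2 fold change of -0.053 and a 95% interval of -0.19 to 0.079. Sema6d, a ligand of plexin A1 in heart and vessel development, had 299, 299.96, 309 and 304 CPM with nANGPTL4 AAV and 329, 360.1, 304 and 378 CPM with control AAV over libraries 1 to 4. The nANGPTL4 AAV libraries lay within 1 narrow band (SD 4.60 CPM, against 32.9 CPM in control AAV), and only control AAV library 3 lay inside it. The log2 fold change of -0.18 (standard error 0.064) had an adjusted p of 0.187 in edgeR.

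Sema6c, a further class 6 ligand, had 15.6, 14.2, 13.9 and 14.2 CPM with nANGPTL4 AAV and 13.6, 13.5, 12.8 and 13.0 CPM with control AAV over libraries 1 to 4. Here all nANGPTL4 AAV libraries were above all control AAV libraries, by a small margin, with a log2 fold change of 0.13 (standard error 0.060, edgeR adjusted p = 0.287). Sema6b, a ligand of plexin A4, had 53.3, 59.7, 54.2 and 48.6 CPM with nANGPTL4 AAV and 56.5, 61.4, 58.8 and 52.3 CPM with control AAV over libraries 1 to 4, with overlapping groups and a log2 fold change of -0.085 (standard error 0.068), which was -0.038 without nANGPTL4 AAV library 4 and -0.039 without control AAV library 2.

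Sema7a, the GPI-anchored ligand of plexin C1 and of an integrin on monocytes and neurons, had 134, 131, 159.7 and 138 CPM in nANGPTL4 AAV libraries 1 to 4, against 191, 157, 168 and 143 CPM in control AAV libraries 1 to 4. It was highest in control AAV library 1, and the groups overlapped (log2 fold change -0.23, standard error 0.088, edgeR adjusted p = 0.213). Without that library the log2 fold change was -0.14. Of the class 5 semaphorins, which carry thrombospondin repeats, Sema5a had 13.4, 17.02, 14.4 and 11.6 CPM with nANGPTL4 AAV and 13.2, 13.2, 11.3 and 15.6 CPM with control AAV over libraries 1 to 4. Sema5a overlapped between groups with a log2 fold change of 0.083 (standard error 0.12), and Sema5b was near the limit of detection at 0.486 ± 0.123 CPM with nANGPTL4 AAV and 0.588 ± 0.160 CPM with control AAV (SD, n = 4 each).

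**Figure D2:**
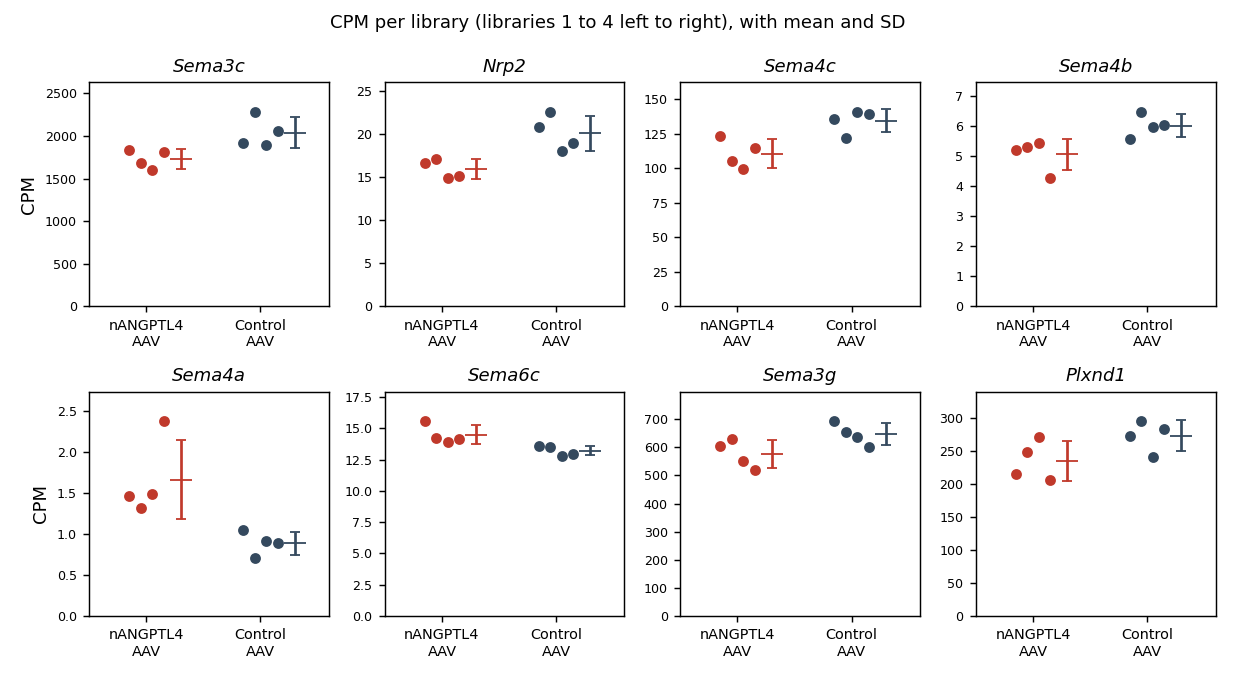
CPM per library (y axis from 0) for 8 of the 31 genes, nANGPTL4 AAV in red on the left and Control AAV in dark blue on the right, a point per library with the mean and SD beside them (n = 4). Sema3c, Nrp2, Sema4b, Sema4a and Sema6c show groups that do not overlap, while Sema4c, Sema3g and Plxnd1 overlap.

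Among the receptors, 0 of 9 plexins were called in edgeR, 7 were negative and 2 positive, and no plexin had groups apart. Over all tested genes 0.138% were called. Negative values made up 47.8% of them, and 62.5% of those with a mean log2 CPM over 3. The groups were apart in 6.99% with nANGPTL4 AAV lower and 3.89% with it higher. Plxna1, a receptor of class 6 ligands and, with neuropilins, of class 3 ligands, had 648, 636, 670.4 and 585 CPM in nANGPTL4 AAV libraries 1 to 4, against 594, 704, 603 and 676 CPM in control AAV libraries 1 to 4. The groups overlapped, with a log2 fold change of -0.021 and a 95% interval of -0.17 to 0.13, which was 0.022 by library size only. Of its exonic bases 10.7% overlap an antisense gene, Gm26811, which had 4.42 CPM in nANGPTL4 AAV and 3.70 CPM in control AAV.

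Plxna2, a receptor of Sema6a, had 145, 108, 145 and 162 CPM with nANGPTL4 AAV and 180.3, 132, 158 and 134 CPM with control AAV over libraries 1 to 4. nANGPTL4 AAV library 2 was the lowest of the 8 and control AAV library 1 the highest, a wide spread within groups (log2 fold change -0.11, standard error 0.13). Plxna4, the other Sema6a receptor, had 94.9, 95.5, 88.7 and 85.0 CPM with nANGPTL4 AAV and 94.4, 78.9, 95.3 and 87.8 CPM with control AAV, and its log2 fold change was 0.031 (standard error 0.065). Plxna3, which with Nrp2 receives Sema3f, was low, at 2.55 ± 0.478 CPM with nANGPTL4 AAV and 2.89 ± 0.521 CPM with control AAV (SD, n = 4 each).

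Plxnd1, the endothelial plexin that receives Sema3e, lies on chromosome 6 from base 115954811 to base 115995005 (minus strand) of mm10. It had 216, 249, 271 and 206 CPM in nANGPTL4 AAV libraries 1 to 4, against 274, 296, 241 and 284 CPM in control AAV libraries 1 to 4. nANGPTL4 AAV libraries 1 and 4 were the lowest of the 8 and libraries 2 and 3 fell among the controls, and the groups overlapped (log2 fold change -0.22, standard error 0.090, 95% interval -0.42 to -0.019, adjusted p = 0.244 in edgeR). Its counts stood at 37.0 ± 3.34% of those of Plxna1 in nANGPTL4 AAV and 42.5 ± 2.55% in control AAV (SD, n = 4 each), with overlap.

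Of the B-type plexins, Plxnb2, the Sema4c receptor, had 68.2, 88.6, 76.1 and 69.6 CPM with nANGPTL4 AAV and 78.7, 93.1, 79.2 and 79.8 CPM with control AAV over libraries 1 to 4. Control AAV library 2 stood alone above the other 3 of its group, and the log2 fold change was -0.13 (standard error 0.085). It was -0.073 without nANGPTL4 AAV library 1, -0.20 without nANGPTL4 AAV library 2 and -0.057 without control AAV library 2. Plxnb1, the Sema4d receptor, averaged 6.27 ± 0.469 CPM with nANGPTL4 AAV and 7.68 ± 1.20 CPM with control AAV (log2 fold change -0.29, standard error 0.11, edgeR adjusted p = 0.224), and Plxnb3, a receptor of Sema5a, 1.48 ± 0.287 CPM with nANGPTL4 AAV and 1.29 ± 0.408 CPM with control AAV (SD, n = 4 each). Without control AAV library 3 the Plxnb1 value was -0.19. Plxnc1, the Sema7a receptor, had 22.9, 27.0, 32.6 and 25.7 CPM with nANGPTL4 AAV and 30.0, 39.5, 25.4 and 29.2 CPM with control AAV. Its highest value was in control AAV library 2 and its lowest in nANGPTL4 AAV library 1, with overlap and a log2 fold change of -0.20 (standard error 0.13). That value was -0.12 without nANGPTL4 AAV library 1 and -0.048 without control AAV library 2.

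The neuropilins had unlike values. Nrp1, the co-receptor that joins VEGF to its main endothelial receptor and Sema3a to A-type plexins, had 1553, 1601, 1718 and 1550.5 CPM in nANGPTL4 AAV libraries 1 to 4, against 1685, 1553, 1497 and 1765 CPM in control AAV libraries 1 to 4. The groups overlapped, and the log2 fold change of -0.017 had a 95% interval of -0.15 to 0.12 and was 0.026 by library size only. Nrp2, the co-receptor of Sema3f and of VEGF-C on veins and lymphatics, lies on chromosome 1 from base 62703285 to base 62818695 (plus strand) of mm10 and had 16.6, 17.1, 14.8 and 15.1 CPM in nANGPTL4 AAV libraries 1 to 4, against 20.7, 22.6, 17.96 and 18.9 CPM in control AAV libraries 1 to 4.

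All 4 nANGPTL4 AAV libraries were below all control AAV libraries in Nrp2. The means were 15.9 ± 1.11 CPM with nANGPTL4 AAV and 20.04 ± 2.05 CPM with control AAV (SD, n = 4 each), and the change on the log2 scale was -0.33 (standard error 0.081, 95% interval -0.51 to -0.15), with an adjusted p of 0.0905 in edgeR and 0.00936 in DESeq2. It was the lowest log2 fold change of the 31 members under the edgeR fit. Relative to Nrp1 of the same library, Nrp2 counts were 1.07, 1.07, 0.862 and 0.977% in nANGPTL4 AAV libraries 1 to 4 and 1.23, 1.45, 1.20 and 1.07% in control AAV libraries 1 to 4, where control AAV library 4 and nANGPTL4 AAV library 1 were level.

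Markers of the vessels known for Nrp2 were mostly negative as well, as were 9 of 10 pan-endothelial markers. Negative values made up 47.8% of all tested genes and 62.5% of those with a mean log2 CPM over 3. The median log2 fold change was -0.25 for the venous list and -0.047 for the pan-endothelial list. All 10 of 10 venous markers were negative with 0 called in edgeR, and their sum was 1274 to 1354 CPM in nANGPTL4 AAV libraries and 1511 to 1634 CPM in control AAV libraries, apart by group. DESeq2 called Ephb4 (adjusted p = 0.0014) and Cpe (adjusted p = 0.0438) lower, where it called 4.16% of genes lower. Of 8 lymphatic markers 6 were negative with 0 called in edgeR and the sum was 928 to 1008 CPM in nANGPTL4 AAV libraries and 896 to 1349 CPM in control AAV libraries, overlapping. Most of that sum came from Lyve1, at 713 ± 38.5 CPM with nANGPTL4 AAV and 854 ± 203 CPM with control AAV. Flt4 gave most of the rest, at 225 CPM with nANGPTL4 AAV and 248 CPM with control AAV. The sum thus says little of the other lymphatic markers. The defining lymphatic factor Prox1 was at 2.62 ± 0.688 CPM with nANGPTL4 AAV and 3.01 ± 0.554 CPM with control AAV (SD, n = 4 each). The part of the venous and lymphatic markers in the Nrp2 value was not tested.

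**Figure D3:**
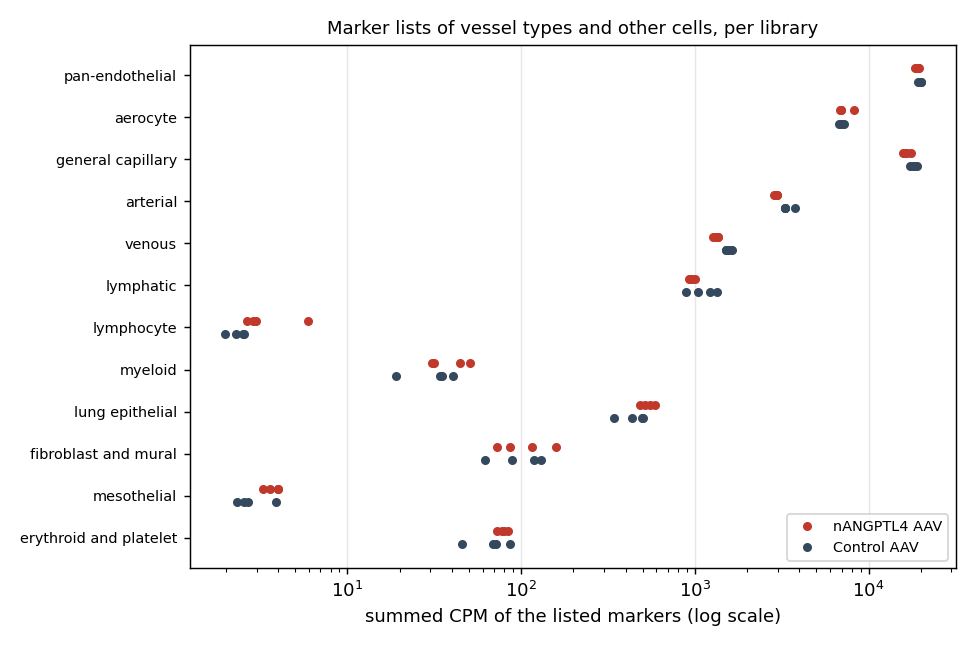
Summed CPM (log scale) of 12 marker lists, a point per library, nANGPTL4 AAV in red above Control AAV in dark blue. The arterial and venous sums lie lower in every nANGPTL4 AAV library, the lymphocyte sum lies higher, and the other 9 lists overlap.

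Across the members together, 22 of 31 log2 fold changes were negative (71.0%), against 47.8% of all tested genes, with a median of -0.086. Among the 9241 genes with a mean log2 CPM over 3, 62.5% were negative with TMM scaling and their median was -0.034, but the sign of that median turned with the scaling, to 0.0058 when scaled by the upper quartile and 0.0094 by library size alone. Sema3f, Plxna1 and Nrp1 turned positive under both of these scalings, so counts of negative members hold for TMM scaling. Of the 19 members in that range 15 were negative, with a median of -0.11. At an unadjusted p under 0.05, 7 of these 19 were lower (36.8%), against 18.2% of such genes, and 0 were higher, against 4.25%. In the same range 2 of the 19 had non-overlapping groups with nANGPTL4 AAV lower (10.5%), against 12.6%, and 1 with it higher, against 2.22%. The share of non-overlapping genes is near the background and says nothing particular of the family.

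**Figure D4:**
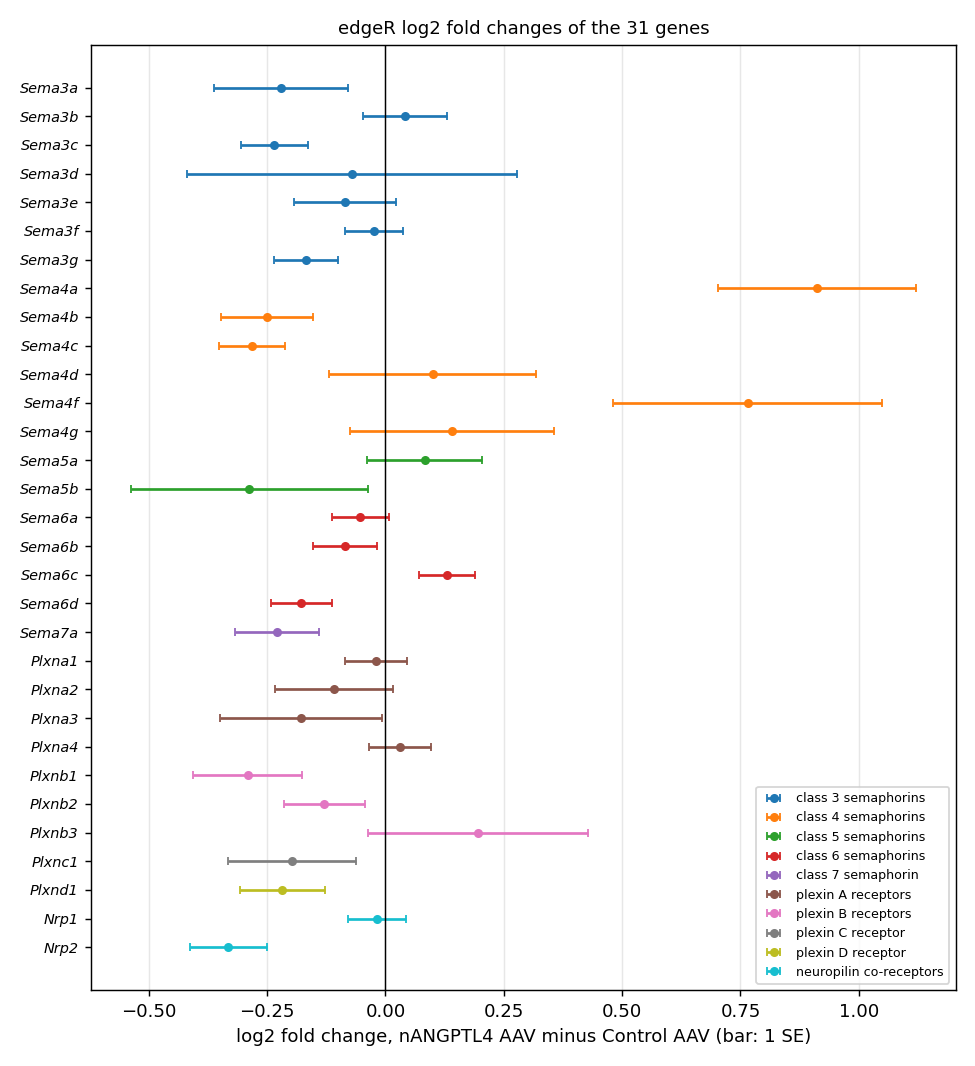
Log2 fold change (x axis, nANGPTL4 AAV minus Control AAV) with 1 standard error for each of the 31 genes from the edgeR fit, coloured by class. Values lie between -0.33 for Nrp2 and 0.91 for Sema4a, and none passed an adjusted p under 0.05.

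Beyond ligands and receptors, 59 genes that work with them were listed, as co-receptors, proteases, small GTPases with their regulators, and kinases with cytoskeletal proteins. Of 56 that passed the filter 1 was called higher and 0 lower in edgeR (background 0.0477% higher and 0.0901% lower), and the median log2 fold change was -0.050. At an unadjusted p under 0.05, 3 were higher and 15 lower, against 7.35% and 10.3% of all tested genes. All 15 lower ones were among the 45 partners with a mean log2 CPM over 3, a range in which 18.2% of genes were lower. DESeq2 called 1 higher, Mical3, and 7 lower, Vegfc, Flt1, Flt4, Adam10, Adam17, Rasa1 and Mras, against 1.98% and 4.16% of genes. The gene called in edgeR was Mst1r, a receptor tyrosine kinase that can join plexin B1, at 0.292, 0.445, 0.310 and 0.418 CPM with nANGPTL4 AAV and 0.121, 0.124, 0.121 and 0.121 CPM with control AAV over libraries 1 to 4 (log2 fold change 1.58, standard error 0.24, adjusted p = 0.0416, edgeR). It rose at a very low level, and was called in no fit that left out 1 library. DESeq2 gave Mst1r no adjusted p.

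At an unadjusted p under 0.05, 1 higher and 6 lower were among 14 tested co-receptors and their ligands, 0 and 3 among 6 proteases, 1 and 4 among 19 small GTPases and regulators, and 1 and 2 among 17 kinases and cytoskeletal proteins. The background is 7.35% higher and 10.3% lower over all tested genes, and 18.2% lower among genes whose mean log2 CPM was over 3. Adam10 and Adam17 are sheddases that can release membrane-bound semaphorins and neuropilins, and both had non-overlapping groups. Adam10 had 146, 143, 166 and 159 CPM with nANGPTL4 AAV and 186, 191, 177 and 183 CPM with control AAV over libraries 1 to 4 (log2 fold change -0.26, standard error 0.054, adjusted p = 0.0691, edgeR), and Adam17 100.2, 95.3, 98.9 and 101 CPM with nANGPTL4 AAV and 106, 117, 107 and 111 CPM with control AAV (log2 fold change -0.16, standard error 0.043, adjusted p = 0.111, edgeR). Neither passed. Among the VEGF receptors and ligands that use neuropilins, Vegfc, the lymphatic growth factor that binds Nrp2, had 64.6, 56.2, 73.7 and 55.9 CPM with nANGPTL4 AAV and 73.7, 79.5, 88.5 and 81.3 CPM with control AAV (log2 fold change -0.37, standard error 0.089, adjusted p = 0.0895, edgeR), and its receptor Flt4 had 214, 235, 230.1 and 222 CPM with nANGPTL4 AAV and 254, 247, 243 and 248 CPM with control AAV (log2 fold change -0.14, standard error 0.043, adjusted p = 0.136, edgeR). Flt1, the decoy VEGF receptor, averaged 562 ± 12.01 CPM with nANGPTL4 AAV and 624 ± 18.2 CPM with control AAV (SD, n = 4 each; log2 fold change -0.15, standard error 0.042, adjusted p = 0.114, edgeR). All nANGPTL4 AAV libraries were lower in these 3, while Kdr, the main VEGF receptor and partner of Nrp1, overlapped at 3269.8 ± 269.6 CPM with nANGPTL4 AAV and 3376 ± 288 CPM with control AAV (log2 fold change -0.046). The groups overlapped in Vegfa too, at 1058 ± 85.0 CPM with nANGPTL4 AAV and 1201 ± 97.0 CPM with control AAV. Its log2 fold change was -0.18 (standard error 0.072, adjusted p = 0.224, edgeR). In DESeq2 the adjusted p was 0.0096 for Vegfc, 0.0387 for Flt4 and 0.0127 for Flt1.

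Downstream, Rasa1, a Ras GTPase-activating protein needed for orderly vessels, had 121, 115, 124 and 126 CPM with nANGPTL4 AAV and 139.9, 148, 150.3 and 133 CPM with control AAV over libraries 1 to 4 (log2 fold change -0.23, standard error 0.051, adjusted p = 0.0740, edgeR), and the small GTPase Mras 34.3, 30.1, 34.3 and 34.4 CPM with nANGPTL4 AAV and 39.1, 38.8, 41.4 and 36.4 CPM with control AAV (log2 fold change -0.23, standard error 0.059, adjusted p = 0.105, edgeR). Every nANGPTL4 AAV library was lower in both. Mical3, of the actin-oxidizing MICAL family whose founding fly member binds plexin A, was the other way, at 26.7, 24.4, 22.3 and 23.8 CPM with nANGPTL4 AAV and 19.9, 19.2, 21.9 and 21.3 CPM with control AAV (log2 fold change 0.24, standard error 0.067, adjusted p = 0.115, edgeR). The GTPases Rhoa and Rac1 overlapped between groups, with log2 fold changes of -0.023 and -0.031. None of these passed in edgeR. DESeq2 called Rasa1 (adjusted p = 0.0056), Mras (adjusted p = 0.0283) and Mical3 (adjusted p = 0.0284). The groups were apart in 12 partners with nANGPTL4 AAV lower and 4 with it higher. Over all tested genes the groups were apart in 6.99% and 3.89%, and among genes whose mean log2 CPM was over 3 in 12.6% and 2.22%.

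**Figure D5:**
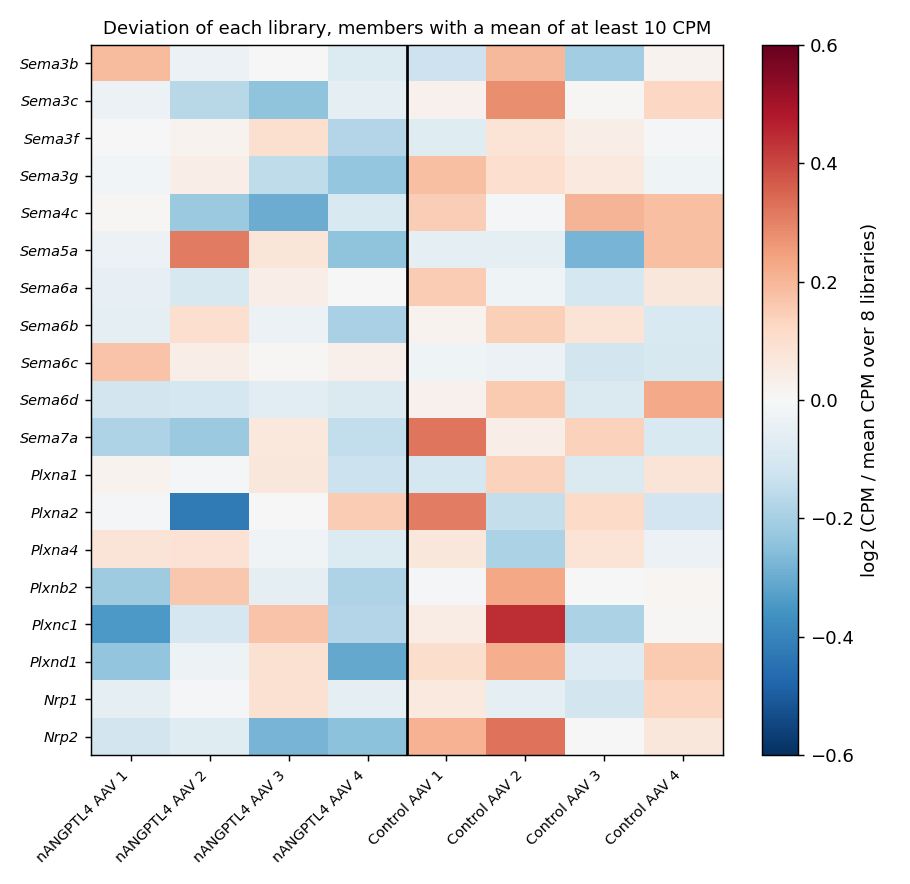
Deviation of each library, as log2 of CPM over the mean of the 8 libraries, for the 19 members with a mean of at least 10 CPM, nANGPTL4 AAV libraries left of the line and Control AAV libraries right of it. Control AAV library 2 holds the highest value of 8 of the 19 genes, and nANGPTL4 AAV library 4 the lowest of 5.

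The libraries of a group were not alike across the members. Control AAV library 2 was the highest of the 8 in 8 of the 19 members with at least 10 CPM, including Sema3c, Plxnc1, Plxnd1 and Nrp2, and control AAV library 3 was the lowest in 5. Of the nANGPTL4 AAV libraries, library 4 was the lowest of the 8 in 5 and the highest in 0. Without control AAV library 2 the log2 fold change of Sema3c was -0.16 and that of Nrp2 -0.26. Over the fits that left out 1 library each, Sema3c kept a value between -0.26 and -0.16, Nrp2 between -0.37 and -0.26, Sema4c between -0.33 and -0.22, and Sema4a between 0.69 and 1.02.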

How the data were processed

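The authors deposited whole-number read counts per Ensembl gene, not normalized, with mm10 named as the build in the submitters' processing notes. RNA was isolated and libraries made with kits for very small samples, per the labels' protocols; the aligner, counter, strand setting and annotation behind them are not given in the sources used here. Symbols matched 31491 of 31610 gene IDs, and coordinates and exonic lengths came from GENCODE M21 on the same build.

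Counts were fitted with edgeR 4.0.16 in R 4.3.3: filterByExpr at a minimum count of 10, TMM scaling, and the quasi-likelihood F test with group as the only term, nANGPTL4 AAV minus control AAV, with Benjamini-Hochberg adjustment over 18874 genes. Intervals of 95% use the same fit's standard error and degrees of freedom. DESeq2 1.42.0 and limma 3.58.1 voom, other scalings and filters, a replicate block and each library left out were alternatives, and the fits were tested on simulated data. Replicates differed by more than counting error in every pair (chi-square 18.7 to 54.4 per degree of freedom). An exact permutation test of class sums had been planned and was not run. Promoter sequences are RefSeq's. The members and lists were chosen with earlier results of these data known. Members with a mean of at least 10 CPM or non-overlapping groups were named with their value in every library, and of the partner genes those called and the 8 with the smallest p among those with non-overlapping groups. Kdr, Vegfa, Rhoa and Rac1 were named outside that rule, after their values were seen.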

Additional observations from a re-analysis of the deposited data

Results flagged for a closer look

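In groups of 4 libraries, a library was picked out where its gap to the nearest other exceeded Dixon's 95% critical value of the group's range. Of 104 groups tested 10 held such a library, and chance picks out about 1 in 20. Among the members, Sema4a in nANGPTL4 AAV library 4 was at 2.37 CPM, against 1.31 to 1.49 CPM in the other 3 of its group. Sema5b in nANGPTL4 AAV library 1 was at 0.670 CPM, against 0.418 to 0.435 CPM in the other 3, and in control AAV library 3 at 0.351 CPM, against 0.637 to 0.684 CPM in the other 3. Plxnb2 in control AAV library 2 was at 93.1 CPM, against 78.7 to 79.8 CPM in the other 3. Of the partner genes, Mras in nANGPTL4 AAV library 2 was at 30.1 CPM, against 34.3 to 34.4 CPM in the other 3, and Mst1r in control AAV library 2 at 0.124 CPM, against 0.121 to 0.121 CPM in the other 3, a gap set by the closeness of those 3. Of the marker sums, the aerocyte list in nANGPTL4 AAV library 3 was at 8259 CPM, against 6878 to 6988 CPM in the other 3, and the lymphocyte list in nANGPTL4 AAV library 2 at 5.90 CPM, against 2.66 to 2.98 CPM in the other 3. The arterial list in control AAV library 2 was at 3768 CPM, against 3288 to 3302 CPM in the other 3, and the pan-endothelial list in control AAV library 3 at 19333 CPM, against 19861 to 19962 CPM in the other 3.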

How the results depend on the processing

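No member was called in edgeR under any of the other scalings, filters, the replicate block or any left-out library, nor in limma-voom, and DESeq2 called 4. Of 494 recomputed member values 464 kept their direction and their side of the threshold, 4 passed in DESeq2, and 26, from 10 members near 0, changed sign. The sign changes outside left-out libraries were log2 fold changes of 0.083 for Sema3d and -0.0017 for Sema4d with limma-voom with quality weights; 0.030 for Sema3d with the replicate block; 0.014 for Sema3f, 0.018 for Plxna1, 0.023 for Nrp1 with upper quartile scaling; 0.018 for Sema3f, 0.022 for Plxna1, 0.026 for Nrp1 with library size only. Leaving out 1 library at a time gave -0.0095 to 0.13 for Sema3b, -0.25 to 0.43 for Sema3d, -0.051 to 0.027 for Sema3f, -0.063 to 0.25 for Sema4d, -0.0072 to 0.17 for Sema5a, -0.082 to 0.00050 for Sema6a, -0.049 to 0.035 for Plxna1, -0.19 to 0.0091 for Plxna2, -0.012 to 0.076 for Plxna4, -0.043 to 0.024 for Nrp1. The cause was not tested.

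Of all genes, edgeR called 26, 4 with upper quartile scaling, 4 with library size only, 17 at a minimum count of 50, and 1 to 2 with 1 library left out, and DESeq2 called 956. The partner gene called was lost (0 called) with upper quartile scaling, library size only, the minimum count of 50, limma-voom, and each library left out (0 to 0), and DESeq2 called 8. With the replicate block edgeR called 6 of all genes, 0 members and 0 partners. The numbers do not pair the libraries: same-numbered libraries deviated from their group means with correlations of 0.0193, 0.0402, -0.203 and -0.166, and not every library correlated best with its own number. At a minimum count of 50, 29 members remained tested. Members below 1 CPM, such as Sema4f and Sema4g, rest on few counts, and their intervals are wide.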

Other observations

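The share of distinct 31-base stretches that recur in transcripts of other genes was highest in Plxna2, at 2.31%, followed by Sema3a at 1.96% and Sema4b at 1.80%. It was 0 in 9 members, among them Sema3g, Sema4c and Sema7a.

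Sema3c per Sema3f, a ratio within a library, was 155 ± 21.2% in nANGPTL4 AAV and 178 ± 11.9% in control AAV (SD, n = 4 each), and Sema4c per Plxnb2, its receptor, was 149 ± 28.9% in nANGPTL4 AAV and 164 ± 22.0% in control AAV. Both ratios overlapped between groups. All 31 members together made up 0.787 ± 0.0123% of a library's counts in nANGPTL4 AAV and 0.824 ± 0.0309% in control AAV, again with overlap.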
